A study of Rattus norvegicus with 12 samples.

Results

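The 10 genes described here are genes by which mature astrocytes are usually recognised and which carry their housekeeping work in the brain: Slc1a2, Slc1a3, Glul, Aqp4, Gja1, Gjb6, Aldh1l1, Fgfr3, S100b and Sox9. They were chosen by name, as the rows of the deposited gene count table that bear these symbols, and not by any measured value. Each symbol stood on 1 row, so that 10 of 18800 symbols in the table are described. All 10 passed the filter on low counts that left 15487 genes for testing. Messenger RNA of brain tissue from Sprague-Dawley rats was sequenced in 3 groups, each of 4 labelled samples. Control rats were bundled (restrained) without needling. Model rats had the MCAO/R operation, in which the middle cerebral artery is occluded and then reperfused, and were bundled in the same way. Electroacupuncture rats had the same operation, were bundled, and received current through needles at the Tianfu, Chize, Kongzui and Taiyuan acupoints of the Lung Meridian of the foreleg. Restraint was therefore common to all 3 groups. The age, sex, brain region and side, the time after the operation and any operation on the controls are not stated in the labels, although the columns of the control group are named sham.

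Astrocytes surround synapses and blood vessels and keep the extracellular fluid stable. Glutamate released by neurons is taken up mainly by the transporters encoded by Slc1a2 and Slc1a3, turned into glutamine by glutamine synthetase, the product of Glul, and passed back to neurons. Aqp4 encodes the water channel of the endfeet that cover blood vessels, and Gja1 and Gjb6 encode the connexins that join astrocytes into a network through gap junctions. Aldh1l1 encodes a folate enzyme, Fgfr3 a receptor for fibroblast growth factors, S100b a secreted calcium-binding protein and Sox9 a transcription factor that specifies astrocytes and is kept on in the adult brain. After ischemia, astrocytes near the damage are known to enlarge and to change many of these functions.

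The deposited table has 11 columns of estimated read counts, 3 for the control group and 4 for each of the others. In 3 pairs of columns within a group the counts were almost alike, and the median over genes of the squared difference was 1.34 to 1.4 times what sampling alone gives. Other pairs of a group were at 4.75 to 26.5 times. Each near-identical pair was summed and counted as 1 sample, which left 3 control samples (A to C), 2 model samples (A, B) and 3 electroacupuncture samples (A to C). The labels do not state that samples are separate animals. The p-values therefore reflect only the spread of these samples, some of which may be technical. Total counts per sample ran from 9335913 to 23835724. Levels are given as CPM, the read count scaled to the size of the library, after TMM scaling, which corrects for differences in library composition. They are not divided by transcript length, so levels of different genes are not compared with each other. In whole tissue, fewer astrocytes and less RNA per astrocyte cannot be told apart. As for the labelled tissue, 10 of 10 neuronal, 12 of 12 microglial, 11 of 11 oligodendrocyte and 38 of 38 further astrocyte genes were above 0 in each of the 8 samples. So were the 7 endothelial genes present, and no share of all genes is given. These counts describe detection and are no test of the tissue.

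The promoters of 4 of the genes are shown because, across the 8 samples, Slc1a3 and Gja1 were the pair of genes whose levels varied most alike and Gjb6 and Aldh1l1 the next, as described further on. These 4 were picked after the levels had been seen. RefSeq promoters of assembly GRCr8 matched 9 of the 10 symbols, all but Sox9, with 15 entries. The 250 bases before the annotated start are printed 5′ to 3′ on the strand of the gene, and where a gene has several starts, the outermost. Capitals mark matches to 6 motifs searched on both strands: the TATA box (TATAAA), the CCAAT box (CCAAT), the GC box (GGGCGG), the nuclear factor I palindrome, the core bound by SOX proteins (ACAAAG) and the STAT palindrome (TTCNNNGAA).
Slc1a3, chr2:59557809-59558058, minus strand: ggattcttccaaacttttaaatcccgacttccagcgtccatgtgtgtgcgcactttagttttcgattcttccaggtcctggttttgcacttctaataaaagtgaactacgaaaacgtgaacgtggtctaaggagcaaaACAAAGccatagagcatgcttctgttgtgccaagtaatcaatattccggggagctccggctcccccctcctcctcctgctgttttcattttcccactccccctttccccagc
Gja1, chr20:36302314-36302563, plus strand: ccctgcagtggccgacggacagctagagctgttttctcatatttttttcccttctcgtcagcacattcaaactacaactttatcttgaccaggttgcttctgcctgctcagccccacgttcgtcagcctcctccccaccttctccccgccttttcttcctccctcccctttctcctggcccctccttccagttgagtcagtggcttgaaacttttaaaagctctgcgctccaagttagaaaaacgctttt
Gjb6, chr15:35410139-35410388, minus strand: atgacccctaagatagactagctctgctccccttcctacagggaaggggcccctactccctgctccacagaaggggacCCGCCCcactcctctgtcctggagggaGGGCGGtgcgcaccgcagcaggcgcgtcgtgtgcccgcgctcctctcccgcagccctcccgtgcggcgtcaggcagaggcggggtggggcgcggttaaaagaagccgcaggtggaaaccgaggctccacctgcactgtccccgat
Aldh1l1, chr4:124616970-124617219, plus strand: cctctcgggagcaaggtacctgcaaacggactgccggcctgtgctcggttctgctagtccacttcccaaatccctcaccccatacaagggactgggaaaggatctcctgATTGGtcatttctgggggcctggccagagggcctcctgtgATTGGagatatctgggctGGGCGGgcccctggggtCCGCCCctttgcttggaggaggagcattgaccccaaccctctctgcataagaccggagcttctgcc
In these windows Slc1a3 held 1 SOX core, 112 bases before the start, and Gja1 held none of the 6 motifs. Gjb6 held GC boxes at 172 and 145 bases before the start, the first of them on the opposite strand. Aldh1l1 held CCAAT boxes on the opposite strand at 141 and 101 bases and GC boxes at 83 and 66 bases before the start, the latter on the opposite strand. Distances are to the first base of a match, and no matches overlapped in the printed windows. Gja1 and Slc1a3 were poorer in G and C (51.2% and 48%) than Aldh1l1 (60.8%) and Gjb6 (68%), against a median of 51.2% over 33469 RefSeq promoter entries of the same length. Of those entries, 12.9% held the TATA box, 34% the CCAAT box, 30.5% the GC box, 0.0359% the nuclear factor I palindrome, 16.3% the SOX core and 7.67% the STAT palindrome. No motif of the 6 was shared by Slc1a3 and Gja1 in these windows, and the GC box was shared by Gjb6 and Aldh1l1. These matches are descriptions of the letters and not binding sites.

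None of the 10 genes passed the test in any of the 3 comparisons, which share their samples. Their levels stayed within 1.51-fold (Slc1a2) to 2.73-fold (Sox9) between the lowest and the highest of the 8 samples. In the model, 9 of the 10 were higher in estimate than in the control group, all but Slc1a2, with a median log2 fold change of 0.27 against 0.017 over all tested genes, of which 51.5% were higher in estimate. Against the model, the electroacupuncture group was higher in estimate for 5 and lower for 5, with a median log2 fold change of 0.07 (0.034 over all genes, 53.4% higher). Against the control group it was higher in estimate for 7, with a median log2 fold change of 0.32 (0.005 over all genes, 50.8% higher).

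The test was edgeR's quasi-likelihood test with Benjamini-Hochberg adjustment over 15487 genes, and a gene was called at an adjusted p under 0.05. For model against control it called 0 of the 10 genes and 0.00646% of all genes. At an unadjusted p under 0.05 it had 0 of the 10 against 13.8% of all genes. For electroacupuncture against model the shares of all genes were 0% and 13.5%, and 0 of the 10 stood at either threshold. For electroacupuncture against control they were 0% and 3.66%, and 1 of the 10, Fgfr3, stood under the unadjusted threshold. DESeq2 called 0 of the 10 in each comparison, where it called 4.91%, 4.37% and 0.0054% of the genes it tested. With each of the 11 columns as a separate library edgeR again called 0 of the 10, against 7.37%, 10.9% and 0% of genes. limma-voom also called 0 of the 10, and of all genes it called 0.00646%, 0% and 0%.

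Sample by sample, both model samples lay above all 3 controls for 3 of the 10 genes, Slc1a3, Glul and S100b, and below them for 0, where 18.2% and 19.6% of all genes did so. All 3 electroacupuncture samples lay above both model samples for 0 of the 10 and below for 0, against 12.9% and 11.7% of all genes. They lay above all controls for 3, Slc1a3, Fgfr3 and S100b, and below for 0, against 5.98% and 4.88% of all genes. Leaving out a sample makes it easier for groups not to overlap, so such counts can hardly fall. Leaving out model A or model B gave 6 genes above the controls in place of 3, and leaving out control A gave 5. Leaving out control B or electroacupuncture B gave 5 in the last comparison. No share of all genes is given for these runs, so the rises say nothing particular to the 10 genes.

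**Figure D1:**
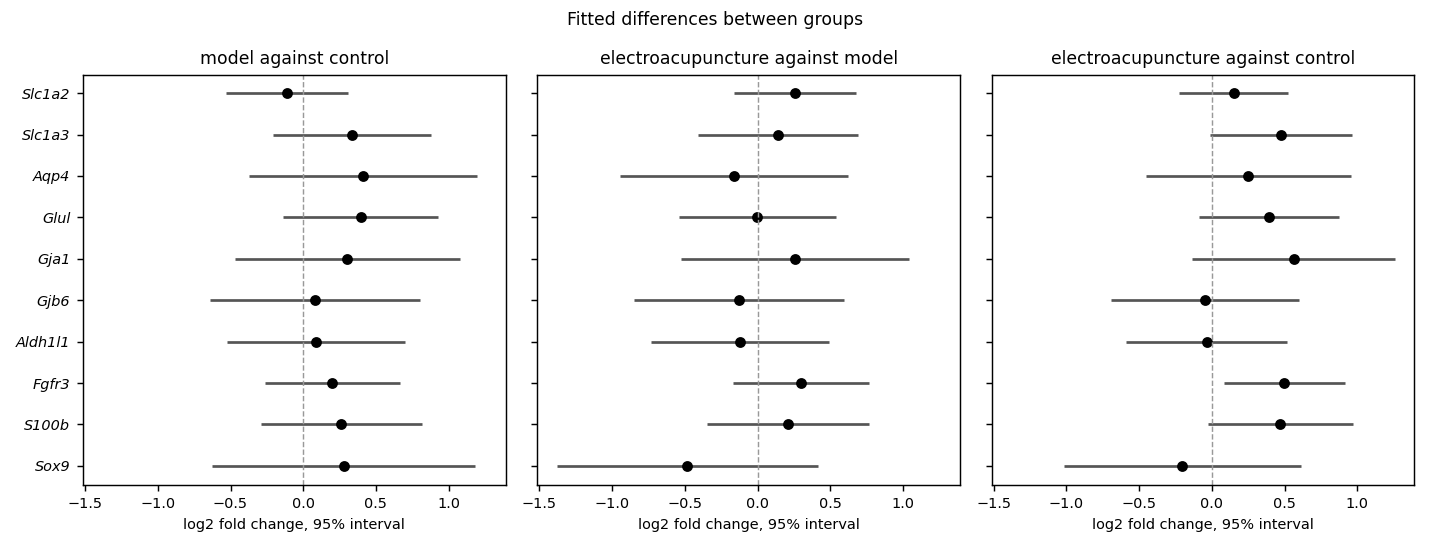
Fitted log2 fold changes (points, horizontal axis) with 95% intervals (lines) for the 10 genes (rows) in the 3 comparisons (panels), from edgeR; the dashed line is no difference. The interval of Fgfr3 in electroacupuncture against control, 0.08 to 0.92, is the one that lies wholly above 0, and its adjusted p did not pass.

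Among the genes of glutamate uptake and recycling, the transporter Slc1a2 had the narrowest range over the samples of all 10 genes. Slc1a2 measured 29.2, 36.3 and 32.5 CPM in controls A to C, 25.8 and 34.8 CPM in models A and B, and 36.4, 33.3 and 38.9 CPM in electroacupuncture samples A to C. The lowest sample was model A and the highest electroacupuncture C, and each pair of groups overlapped. Group means were 32.7 ± 3.52, 30.3 ± 6.39 and 36.2 ± 2.8 CPM (SD, n = 3, 2 and 3) for control, model and electroacupuncture. Means of the other genes are listed in the same order of groups. Its log2 fold change in the model was -0.11 (95% interval -0.53 to 0.31, edgeR adjusted p = 0.811), so these samples leave room for a change of that size in either direction. Electroacupuncture stood 0.26 above the model on the log2 scale (-0.16 to 0.68, adjusted p = 0.61) and 0.15 above the control group (-0.23 to 0.52, adjusted p = 0.848). The count behind Slc1a2 was 226 to 420 reads per column, against 1628 to 4212 for Slc1a3, so its counting error was the larger of these transporters.

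Slc1a3, the other main astrocyte transporter for glutamate, was higher in every operated sample than in any control. Its levels were 218, 185 and 204 CPM in controls A to C, 286 and 225 CPM in the model, and 365, 242 and 236 CPM with electroacupuncture. Electroacupuncture A stood well above the rest and model A came next, while model B and electroacupuncture B and C lay just above the controls. Group means were 202 ± 16.4, 255 ± 43.3 and 281 ± 72.9 CPM (SD, n = 3, 2 and 3). The model differed from the control group by a log2 fold change of 0.34 (SE 0.23, adjusted p = 0.549), and electroacupuncture differed from the control group by 0.48 (SE 0.21, adjusted p = 0.843, edgeR). Without electroacupuncture A the second value was 0.24, and without model A the first was 0.15. Between electroacupuncture and model the log2 fold change was 0.14 (95% interval -0.41 to 0.69). The ratio of Slc1a2 to Slc1a3 counts, read only across samples, was lowest in model A (0.0901) and electroacupuncture A (0.0997) and lay between 0.134 and 0.196 in the other 6.

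Glul, which encodes the enzyme that turns glutamate and ammonia into glutamine and is also expressed in oligodendrocytes, was higher in both model samples than in the controls. Glul stood at 704, 807 and 672 CPM in the 3 controls, at 861 and 1051 CPM in models A and B and at 1150, 742 and 971 CPM with electroacupuncture. Here model B was the higher of the model samples, and electroacupuncture B lay inside the control range. The means were 727 ± 70.7, 956 ± 134 and 954 ± 204 CPM (SD, n = 3, 2 and 3), with a log2 fold change in the model of 0.39 (SE 0.23, adjusted p = 0.477, edgeR). Model and electroacupuncture means were nearly equal, with a log2 fold change of -0.003 and a 95% interval of -0.54 to 0.54.

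Of 20 other genes that move or convert glutamate and glutamine, 0 passed in any comparison. In the model 11 were higher in estimate and 9 lower, with a median log2 fold change of 0.11. At an unadjusted p under 0.05 the counts were 2 higher and 1 lower in the model, 2 higher with electroacupuncture against the model, and 1 higher against the control group. Of all genes, 13.8%, 13.5% and 3.66% stood under that threshold in the 3 comparisons, and 51.5%, 53.4% and 50.8% were higher in estimate. Slc1a1, a glutamate transporter mainly of neurons, was lower in both model samples (4.82 and 9.03 CPM) than in the controls (14.5 to 16.3 CPM), at 9.28, 19.5 and 14.7 CPM with electroacupuncture (model against control log2 fold change -1.13, edgeR adjusted p = 0.262). Slc38a1, a glutamine carrier of neurons, was higher in the model, at 106 and 112 CPM against 53.9 to 75.2 CPM (0.83, adjusted p = 0.233). Slc38a3, through which astrocytes release glutamine, pointed the same way at 89.5 and 85.4 CPM against 58.7 to 69.2 CPM (0.42, adjusted p = 0.533). Slc1a4, a carrier of neutral amino acids, reached 16 CPM in model B alone and was 0.55 to 3.3 CPM elsewhere. With electroacupuncture, the estimates for these 20 genes were 9 higher and 11 lower against the model (median -0.05) and 11 higher and 9 lower against the control group (0.01).

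**Figure D2:**
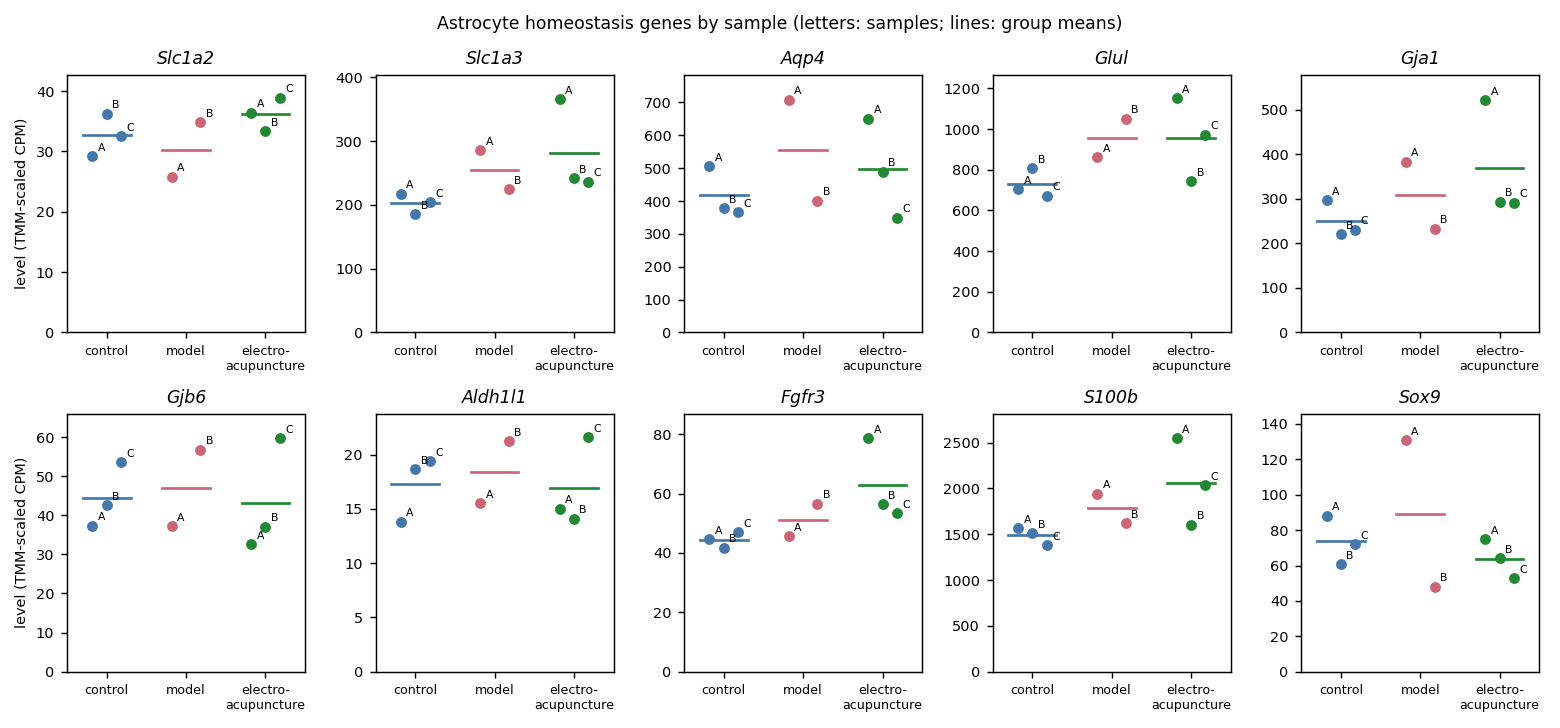
Level of each of the 10 genes (panels, vertical axis in TMM-scaled CPM from 0) in the 3 control, 2 model and 3 electroacupuncture samples (letters), with group means as lines. Electroacupuncture A is the highest sample for Slc1a3, Glul, Gja1, Fgfr3 and S100b, and model A for Aqp4 and Sox9.

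Aqp4, the water channel through which brain swelling after ischemia is known to be shaped, varied more within groups than between them. Aqp4 measured 506, 379 and 367 CPM in controls A to C, 709 and 401 CPM in models A and B, and 651, 489 and 349 CPM with electroacupuncture. Model A was the highest and electroacupuncture C the lowest, and model B lay inside the control range. The means were 417 ± 77.3, 555 ± 218 and 496 ± 151 CPM (SD, n = 3, 2 and 3). The log2 fold change in the model was 0.41 with an SE of 0.34 (edgeR adjusted p = 0.607), and it was -0.06 without model A and 0.76 without model B. Against the model, electroacupuncture stood at -0.16 on the log2 scale (95% interval -0.95 to 0.63), and at 0.31 without model A.

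Among 19 other genes of the endfoot membrane, its anchors and potassium uptake, 0 passed. Higher in estimate were 12 in the model, 11 with electroacupuncture against the model and 16 against the control group, with median log2 fold changes of 0.08, 0.12 and 0.31. At an unadjusted p under 0.05, 2, 1 and 3 of them were higher and 0 lower. All tested genes had shares of 13.8%, 13.5% and 3.66% at that threshold in either direction, with 51.5%, 53.4% and 50.8% higher in estimate. Hepacam, a cell adhesion protein of astrocytes, was higher in all electroacupuncture samples (149, 101 and 101 CPM) than in the controls (73.1 to 93.5 CPM) and the model (89.9 and 75.8 CPM), with log2 fold changes of 0.51 and 0.50 (edgeR adjusted p = 0.843 and 0.392). Sntb1, a syntrophin of the membrane scaffold, measured 21.9 and 12.3 CPM in the model against 4.49 to 6.82 CPM in controls (1.64, adjusted p = 0.188). Agrn, a basement membrane proteoglycan, measured 204 and 280 CPM against 141 to 154 CPM (0.71, adjusted p = 0.234). The potassium channel Kcnj10, which works beside Aqp4 in astrocytes, did not exceed the control range in the model, at 12.2 and 9.58 CPM against 11 to 20.5 CPM in the controls.

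The connexins of astrocytes, Gja1 and Gjb6, lay on opposite sides of their control means in models A and B and in electroacupuncture A and B. This was also so in controls A and C, so it was not particular to operated samples. Both genes were below the control mean in control B and above it in electroacupuncture C. Gja1 measured 297, 221 and 231 CPM in controls A to C, 384 and 233 CPM in models A and B, and 521, 294 and 291 CPM with electroacupuncture. Its highest samples were electroacupuncture A and model A, and control A was the highest of the controls. Its means were 250 ± 41.4, 308 ± 107 and 369 ± 132 CPM (SD, n = 3, 2 and 3), and the largest of its log2 fold changes, electroacupuncture against control, was 0.56 (SE 0.3, edgeR adjusted p = 0.843) and 0.23 without electroacupuncture A. The model stood 0.30 above the control group on the log2 scale (adjusted p = 0.709), and at -0.11 without model A.

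Gjb6 measured 37.3, 42.6 and 53.5 CPM in controls A to C, 37.2 and 56.8 CPM in models A and B, and 32.5, 37.1 and 59.7 CPM with electroacupuncture. The samples highest for Gja1 were thus among the lowest for Gjb6, and all groups overlapped. The 3 log2 fold changes of Gjb6 were 0.08 in the model, -0.13 for electroacupuncture against model and -0.05 against control, with a 95% interval of -0.64 to 0.80 for the first. The means were 44.5 ± 8.26, 47 ± 13.8 and 43.1 ± 14.5 CPM (SD, n = 3, 2 and 3). The ratio of Gjb6 to Gja1 counts, read across samples, ran from 0.0624 in electroacupuncture A and 0.0969 in model A to 0.232 in control C and 0.244 in model B.

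Of 10 tested genes for other connexins, pannexins and the junction scaffold Tjp1, 0 passed. In the model 6 were lower in estimate (median log2 fold change -0.37, 2 lower at an unadjusted p under 0.05). With electroacupuncture 7 were higher than in the model (0.52, 3 at that threshold) and 8 higher than in the control group (0.23, 0 at it). The matching shares of all genes were 13.8%, 13.5% and 3.66% at that threshold, with 51.5%, 53.4% and 50.8% higher in estimate. Tjp1 was lower in the model, at 87.2 and 85.1 CPM against 107 to 121 CPM in controls and 114 to 127 CPM with electroacupuncture (log2 fold changes -0.42 and 0.48, edgeR adjusted p = 0.235 and 0.196). Gjb1, a connexin of myelin, measured 11.7 and 5.37 CPM in the model, 11.9 to 16.2 CPM in controls and 14.1 to 31.1 CPM with electroacupuncture. Oligodendrocyte markers were low in model B as well: 11 of 11 summed to 42480 to 67570 CPM in the controls, 47280 and 24700 CPM in the model and 32140, 52730 and 74670 CPM with electroacupuncture, and their part was not tested. Most of each sum came from Mbp and Mobp. Their list had a mean log2 difference of -1.22 in model B. It was -0.28 in electroacupuncture A, inside the control range of -0.39 to 0.4. Gjd2, a connexin of neurons, was at 0.43 and 0.44 CPM in the model and 0.69 to 3.53 CPM elsewhere. Gjb2, a connexin of astrocytes and of the meninges, lay between 1.93 and 3.97 CPM in all 8 samples with overlapping groups.

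Aldh1l1 encodes formyltetrahydrofolate dehydrogenase, which returns one-carbon units to free folate, and is a widely used marker of all astrocytes. Aldh1l1 measured 13.8, 18.6 and 19.4 CPM in controls A to C, 15.5 and 21.2 CPM in models A and B, and 15, 14.1 and 21.6 CPM with electroacupuncture. Every group held both low and high samples. The means were 17.3 ± 3.02, 18.4 ± 4.03 and 16.9 ± 4.1 CPM (SD, n = 3, 2 and 3), and the log2 fold changes were 0.09, -0.12 and -0.04 (edgeR adjusted p = 0.903, 0.892 and 0.977). The 95% interval for the model was -0.53 to 0.70, so a difference within those bounds could not be told from none with these samples. Of 17 other folate and serine enzymes, 0 passed. In estimate 9, 10 and 13 were higher in the 3 comparisons, with median log2 fold changes of 0.14, 0.28 and 0.39. At an unadjusted p under 0.05 there were 1 higher and 0 lower, 3 higher and 1 lower, and 0. Under that threshold stood 13.8%, 13.5% and 3.66% of all genes, and 51.5%, 53.4% and 50.8% were higher in estimate. Ftcd, a folate enzyme of histidine breakdown, measured 3.27 and 2.57 CPM in the model against 0.64 to 1.66 CPM in the other samples. Atic, an enzyme of purine synthesis, measured 25.2, 15.9 and 14.8 CPM with electroacupuncture against 9.47 to 14.7 CPM elsewhere, and the mitochondrial enzyme Mthfd2 measured 3.32 and 2.85 CPM in the model against 4.42 to 6.86 CPM elsewhere.

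Fgfr3, the receptor for fibroblast growth factors that marks astrocytes and their precursors, was the one gene of the 10 with an unadjusted p under 0.05 in a comparison. Fgfr3 stood at 44.7, 41.7 and 47 CPM in controls A to C, at 45.6 and 56.6 CPM in models A and B, and at 78.6, 56.5 and 53.4 CPM with electroacupuncture. All electroacupuncture samples lay above all controls, model A lay inside the control range, and model B lay among the electroacupuncture samples. The means were 44.5 ± 2.65, 51.1 ± 7.74 and 62.8 ± 13.8 CPM (SD, n = 3, 2 and 3). Electroacupuncture against control gave a log2 fold change of 0.50 (SE 0.18, 1.41-fold, edgeR unadjusted p = 0.0253, adjusted p = 0.843). Without electroacupuncture A it was 0.30 with an unadjusted p of 0.0723 in edgeR. Against the model the log2 fold change was 0.30 (95% interval -0.17 to 0.77), and 0.11 without electroacupuncture A.

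Of 21 other tested genes, 0 passed. They were receptors, ligands and targets of this pathway, together with Fgf12, Fgf13 and Fgf14, intracellular relatives of the growth factors and not ligands. In the model 12 were lower in estimate (median log2 fold change -0.29) and 9 of the 21 had both model samples below all controls and 3 above them, against 19.6% and 18.2% of all genes. At an unadjusted p under 0.05 there were 1 higher and 5 lower in the model, 4 higher and 2 lower with electroacupuncture against the model, and 2 lower against the control group. That threshold held 13.8%, 13.5% and 3.66% of all genes, and 51.5%, 53.4% and 50.8% of all genes were higher in estimate. Fgf12 was the 1 gene higher in the model at that threshold. Both model samples lay above all controls for Fgf12 and Fgf14 and below them for Fgf13, so the counts are not of pathway genes alone. Fgfr1, a receptor also common in neurons, had the smallest unadjusted p of the list (0.0036 in edgeR, for the model). Its levels were 120, 107 and 95.7 CPM in the controls, 62.2 and 40 CPM in the model and 72.6, 112 and 100 CPM with electroacupuncture, so both model samples were the lowest of the 8. The log2 fold changes were -1.08 (SE 0.26, edgeR adjusted p = 0.172) in the model and 0.89 (adjusted p = 0.218) for electroacupuncture against model. Dusp6, a phosphatase induced by the kinase cascade below these receptors, measured 40.1, 31.4 and 31.8 CPM in the controls, 10.3 and 13.1 CPM in the model and 12.2, 34.9 and 24.3 CPM with electroacupuncture (model against control -1.55, adjusted p = 0.187). Markers of hippocampal neurons were also low in electroacupuncture A and both model samples. Their summed level over 10 of 10 genes was 589 to 813 CPM in the controls, 145 and 313 CPM in the model and 168, 648 and 576 CPM with electroacupuncture, with Tdo2 at 0 in 4 samples, and their part in Fgfr1 and Dusp6 was not tested. Fgfr2, a receptor of oligodendrocytes and astrocytes, measured 65, 58.4 and 89.5 CPM in the controls, 85 and 73.5 CPM in the model and 129, 107 and 70.3 CPM with electroacupuncture, and its groups overlapped. Fgf12, an intracellular relative of the growth factors that binds sodium channels of neurons, was higher in the model (168 and 224 CPM) than in the controls (107 to 115 CPM) and electroacupuncture samples (72.2 to 129 CPM). Estimates for the 21 genes were 14 higher with electroacupuncture against the model (median 0.21) and 14 lower against the control group (-0.15).

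**Figure D3:**
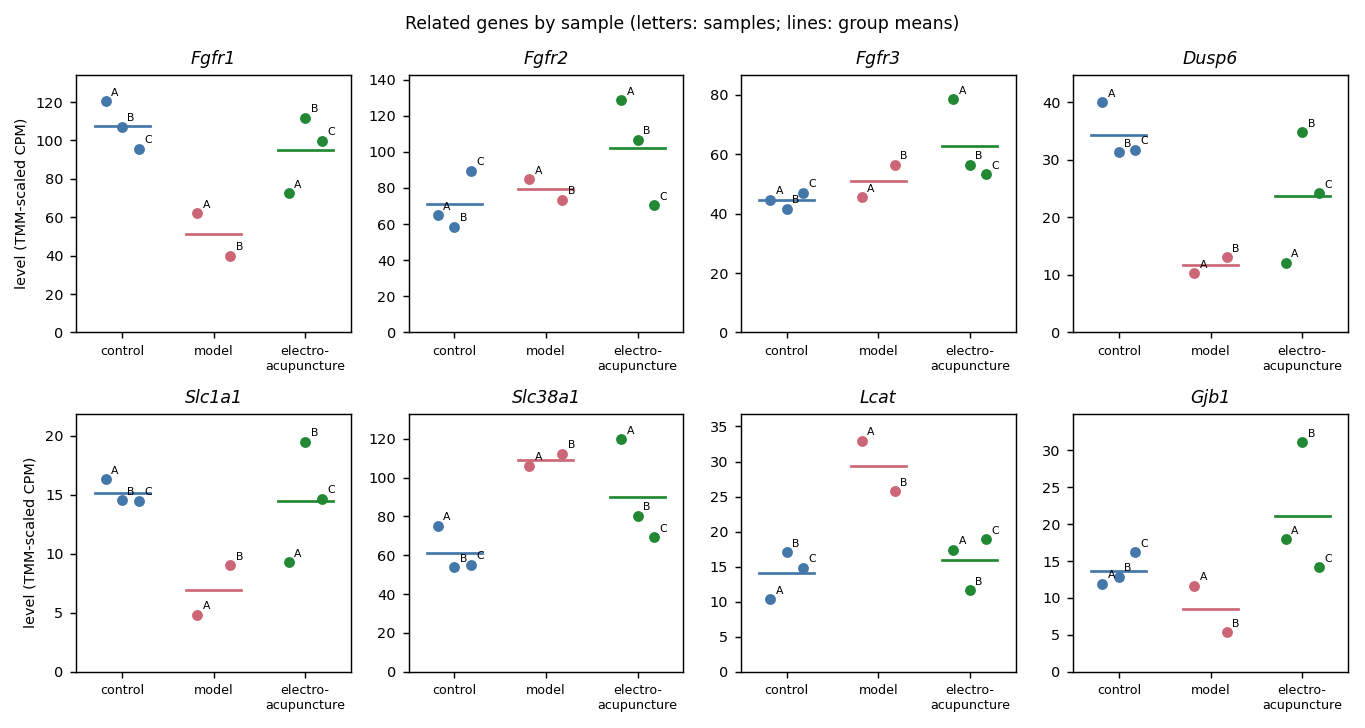
Level (TMM-scaled CPM, from 0) of Fgfr3 beside the related receptors Fgfr1 and Fgfr2 and the target Dusp6, and of Slc1a1, Slc38a1, Lcat and Gjb1, by sample (letters) with group means (lines). Fgfr1 in models A and B, 62.2 and 40 CPM, lies below every other sample, while Fgfr3 in the model, 45.6 and 56.6 CPM, does not.

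S100b, a protein that astrocytes and some oligodendrocytes make and release, was higher in every operated sample than in any control. S100b measured 1563, 1514 and 1383 CPM in controls A to C, 1943 and 1621 CPM in models A and B, and 2547, 1603 and 2033 CPM with electroacupuncture. Model B and electroacupuncture B were close to the highest control, and electroacupuncture A stood above all others. The means were 1487 ± 93, 1782 ± 227 and 2061 ± 472 CPM (SD, n = 3, 2 and 3). The log2 fold change was 0.26 (SE 0.24, edgeR adjusted p = 0.643) in the model and 0.47 (SE 0.21, adjusted p = 0.843) for electroacupuncture against control. Without model A the first was 0.12, and without electroacupuncture A the second was 0.29. Of 11 tested genes for other S100 proteins and their receptor Ager, 0 passed at the adjusted or the unadjusted threshold. In the model 9 were higher in estimate (median log2 fold change 0.37). With electroacupuncture 10 were lower than in the model (-0.43) and 7 higher than in the control group (0.16). Shares of all genes higher in estimate were 51.5%, 53.4% and 50.8%, and 13.8%, 13.5% and 3.66% stood under the unadjusted threshold. S100a13 measured 123 CPM in model A and 48.1 to 72 CPM elsewhere, S100a3 measured 10.3 CPM in model A and 9.89 CPM in electroacupuncture A and 2.57 to 4.66 CPM elsewhere, and S100a10 was lowest in electroacupuncture A and B (16.1 and 24.3 CPM against 36.1 to 45.7 CPM). The direction of the S100 list in the model came with model A, where its mean log2 difference from controls was 0.85, against -0.24 in model B.

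Sox9 had the widest spread of the 10 genes, and it lay between the model samples. Sox9 measured 88.3, 60.7 and 71.9 CPM in controls A to C, 131 and 48 CPM in models A and B, and 75, 64 and 52.9 CPM with electroacupuncture. Model A and model B were the highest and the lowest of all 8 samples. The means were 73.6 ± 13.9, 89.4 ± 58.6 and 64 ± 11 CPM (SD, n = 3, 2 and 3). The log2 fold change in the model was 0.28 (95% interval -0.62 to 1.18, edgeR adjusted p = 0.771), but -0.62 without model A and 0.82 without model B, so these data give no direction for Sox9. Of 20 other transcription factors of glial development, 0 passed. In estimate 13, 10 and 15 were higher in the 3 comparisons (median log2 fold changes 0.22, 0.04 and 0.16). At an unadjusted p under 0.05 there were 1 higher and 2 lower, 1 higher and 1 lower, and 1 higher and 0 lower. Over all genes, 13.8%, 13.5% and 3.66% stood under that threshold, and 51.5%, 53.4% and 50.8% were higher in estimate. Sox8, a relative of Sox9 that is expressed in the oligodendrocyte lineage, measured 42.8, 35.8 and 26.7 CPM with electroacupuncture against 17.3 to 26.6 CPM in controls. Nfia, which acts with Sox9 in making astrocytes, measured 25.4, 13.9 and 20.7 CPM with electroacupuncture, 12.5 and 8.05 CPM in the model and 12.1 to 16.7 CPM in controls. Lhx2, a factor of the forebrain, measured 57.8 and 77.5 CPM in the model against 89.6 to 105 CPM in controls.

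The 10 genes did not vary as one block. Across the 8 samples, 27 of the 45 pairs of genes had a positive and 18 a negative Pearson correlation of log2 CPM, with a median of 0.27. These values describe 8 samples that share groups, tissue composition and libraries. Slc1a3 and Gja1 were the most alike, at 0.96 (Spearman's rho 0.86), and at 0.87 without electroacupuncture A and control B, the samples farthest from the median of Slc1a3. Gjb6 and Aldh1l1 followed at 0.92 (rho 0.83), Slc1a3 and S100b at 0.90 and Aqp4 and Gja1 at 0.84. Without model A and electroacupuncture A, the value was 0.75 for Slc1a3 and Gja1, 0.94 for Gjb6 and Aldh1l1, 0.60 for Slc1a3 and S100b and 0.55 for Aqp4 and Gja1. The promoters of Gjb6 and Aldh1l1, printed above, shared the GC box, while those of Slc1a3 and Gja1 shared none of the motifs searched. Promoter entries of Aqp4, Glul and Fgfr3, not printed, held the GC box too. Aqp4 correlated at -0.83 with Gjb6 and at -0.76 with Aldh1l1. A link between shared motifs and likeness of levels was not tested.

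The transporter and connexin genes that pair in function did not pair in level. Slc1a2 and Slc1a3 correlated at -0.09, and Gja1 and Gjb6 at -0.68, or -0.36 without model A and electroacupuncture A. Aqp4 and Gjb6, which are found in the same endfeet, correlated at -0.83, and at -0.84 without model A and electroacupuncture A. Slc1a2 and Sox9 correlated at -0.87, and at -0.84 without model A and electroacupuncture A. Without model A and control A, the samples farthest from the median of Slc1a2, the value was -0.36, so it rested on that pair of samples. The counts of Aqp4 and Gja1 held fractional values in all 11 columns and those of Sox9 in 10, and no source states how these fractions arose. The counts of the other 7 genes were whole numbers in each column. Over all tested genes 39.5% held a fractional value.

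**Figure D4:**
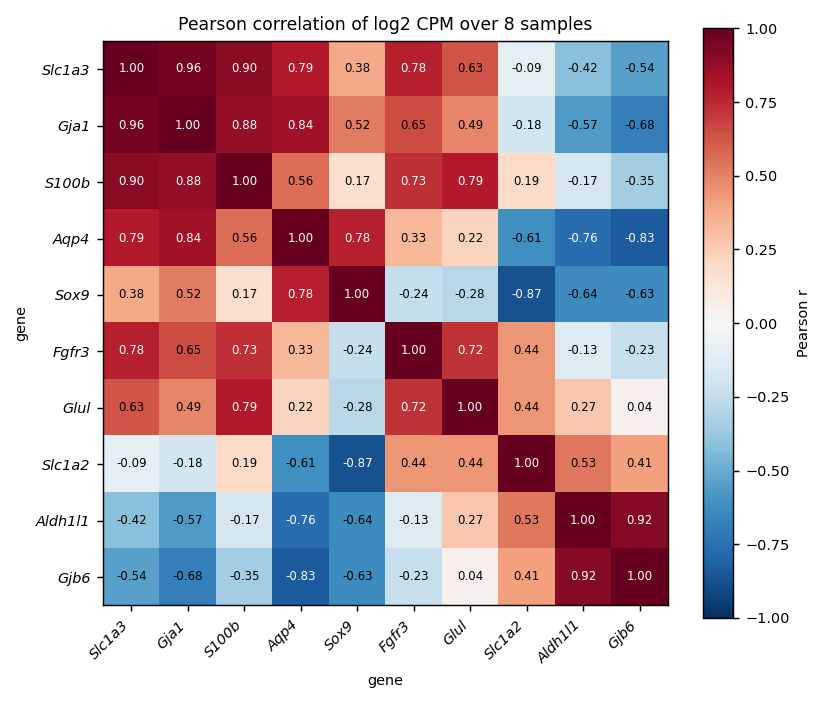
Pearson correlation (colour and number) of log2 CPM over the 8 samples for each pair of the 10 genes (rows and columns). Slc1a3, Gja1 and S100b form a block of values from 0.88 to 0.96, and Gjb6 with Aldh1l1 (0.92) stands opposite to Aqp4 (-0.83 and -0.76).

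As a median over the 10 genes, the log2 difference from the control mean was 0.32 in model A, 0.14 in model B and 0.66, 0.07 and 0.26 in electroacupuncture samples A to C, against -0.07 to 0.04 in the controls. The samples with the largest differences, electroacupuncture A and model A, were also those farthest from the controls for markers of microglia, neurons and striatal neurons, while model B was farthest for oligodendrocyte and neocortical markers. The summed level of 12 of 12 microglial markers was 272 to 355 CPM in the controls, 757 and 420 CPM in the model and 1039, 392 and 360 CPM with electroacupuncture. Summed over 10 of 10 neuronal markers, the level was 9675 to 10700 CPM in the controls, 7304 and 12400 CPM in the model and 4277, 10960 and 9130 CPM with electroacupuncture. For 9 of 9 markers of striatal medium spiny neurons it was 151 to 348 CPM in the controls, 713 and 326 CPM in the model and 4790, 313 and 160 CPM with electroacupuncture. No gene of these 3 lists was at 0 in any sample. Sums follow their most abundant genes, and in model B the neuronal list split. Snap25, Syt1, Tubb3 and Syp lay above all controls there, and Rbfox3, Nefl and Nefm below them. The mean log2 difference of the neuronal list was 0.03 in model B, -0.64 in model A and -1.295 in electroacupuncture A. Microglial and neuronal markers and those of the striatum thus stood apart in electroacupuncture A and model A.

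Slc1a3 correlated with the mean of the microglial list at 0.95, with the neuronal list at -0.89 and with the striatal list at 0.88 over the 8 samples, and Gja1 at 0.89, -0.89 and 0.83. S100b had 0.83, -0.84 and 0.76. The neuronal list mean was -1.295 in electroacupuncture A and -0.638 in model A, and -0.068 to 0.101 in the other samples. For the striatal list it was 5.07 and 2.41, against -0.53 to 0.68. No correlation with a list was computed without electroacupuncture A and model A, so a graded relation over the remaining samples is not shown. Slc1a2, Gjb6 and Aldh1l1 did not follow these lists in that way: with the microglial list they had -0.16, -0.51 and -0.32. Fgfr3 correlated most with the endothelial list, at 0.86, whose 7 genes present of 9 summed to 193 to 365 CPM in the controls, 247 and 440 CPM in the model and 662, 245 and 327 CPM with electroacupuncture. The part of tissue composition or of the region dissected in these differences was not tested. Neocortical and hippocampal markers differed along with the groups as well: 10 of 10 neocortical genes had a mean log2 difference of 0.79 and 1.2 in models A and B and 0.25, 0.49 and 0.04 in electroacupuncture samples A to C, and the hippocampal genes had -2.85 and -2.52 in the model and -2.49, -0.06 and -0.43 with electroacupuncture.

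**Figure D5:**
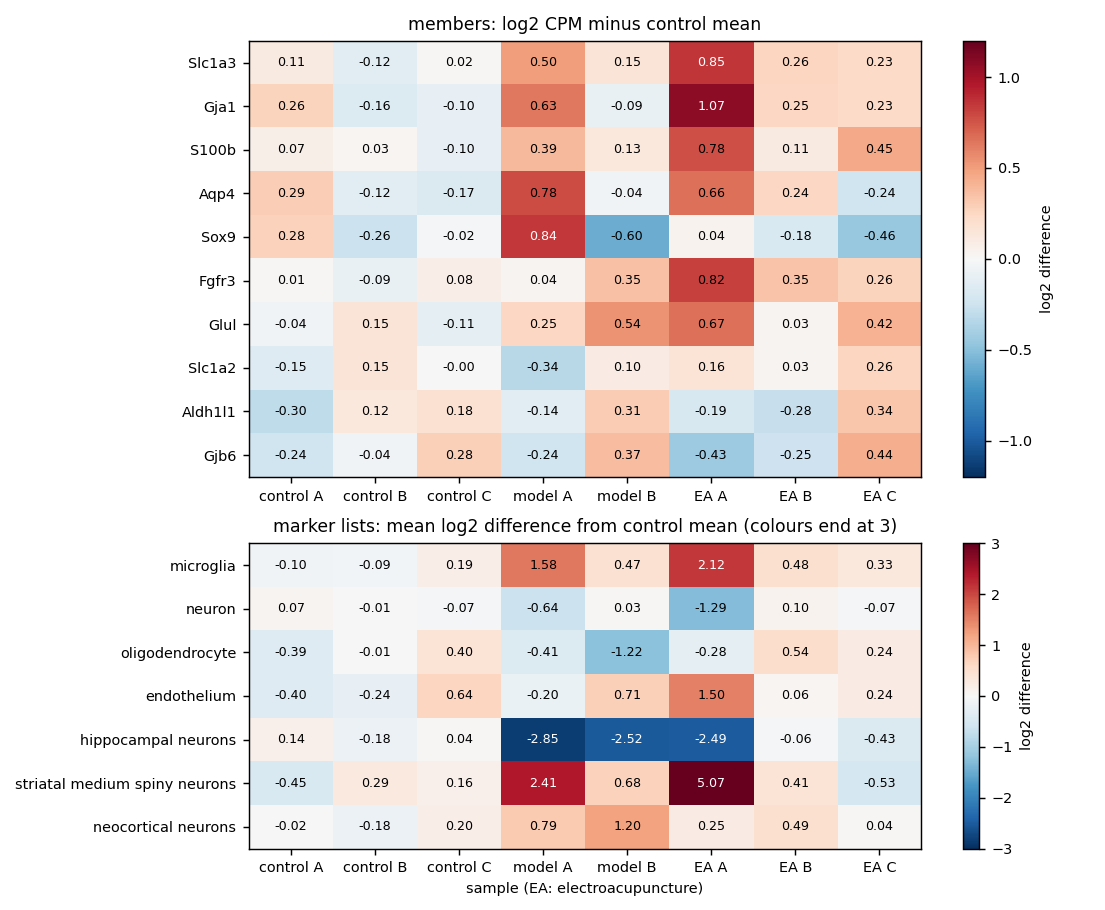
Upper panel: log2 difference of each of the 10 genes (rows) from its control mean in each sample (columns). Lower panel: mean log2 difference of the markers of 7 other cell types and regions. Electroacupuncture A has the highest Slc1a3 (0.85) and Gja1 (1.07) and also the highest microglial (2.12) and striatal (5.07) and the lowest neuronal (-1.295) values.

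Of 38 further genes enriched in astrocytes, 0 passed. In estimate 25 were higher in the model, 28 higher with electroacupuncture against the model and 34 against the control group (median log2 fold changes 0.19, 0.12 and 0.21). At an unadjusted p under 0.05 there were 1 higher and 0 lower, 2 higher and 1 lower, and 1 higher and 0 lower. Among all genes 51.5%, 53.4% and 50.8% were higher in estimate, and 13.8%, 13.5% and 3.66% stood under that threshold. As a median over the 38 genes, the log2 difference from controls was 0.25 and 0.06 in the model and 0.50, 0.08 and 0.08 with electroacupuncture. In model B, Mt3 stood at 0.49 CPM and Ppp1r3c at 1.53 CPM, against 610 ± 76.4 and 41.5 ± 4.6 CPM in controls (SD, n = 3), and both were picked out after their values were seen. Lcat, an enzyme of cholesterol transport that astrocytes secrete, measured 33 and 25.7 CPM in the model against 10.4 to 18.9 CPM in the other samples (model against control log2 fold change 1.06, edgeR adjusted p = 0.188). Tril, a partner of toll-like receptors in astrocytes, measured 63 and 51 CPM in the model and 77.1 to 92.4 CPM with electroacupuncture (0.60, adjusted p = 0.251). Aldoc, the glycolytic aldolase of astrocytes, lay between 519 and 778 CPM with overlapping groups.

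Genes induced in reactive astrocytes gave 0 calls among 24. In estimate 18 were higher in the model (median log2 fold change 0.44), 11 with electroacupuncture against the model (-0.10) and 16 against the control group (0.28). At an unadjusted p under 0.05 there were 1 higher and 1 lower, 1 higher and 0 lower, and 1 higher and 0 lower. For all genes the shares were 51.5%, 53.4% and 50.8% higher in estimate and 13.8%, 13.5% and 3.66% under that threshold. The list split between samples, with a median log2 difference from controls of 0.69 in model A, -0.22 in model B and 0.74 in electroacupuncture A, against -0.08 and -0.05 in the other electroacupuncture samples. Gfap, the intermediate filament used to stain reactive astrocytes, measured 1364, 1950 and 992 CPM in controls A to C, 2259 and 502 CPM in models A and B, and 1783, 1207 and 1254 CPM with electroacupuncture. As for Sox9, the model samples were the highest and the lowest of the 8. Tnc, a matrix protein of glial scars, measured 95.2 CPM in model A and 65.2 CPM in electroacupuncture A against 7.33 to 14.8 CPM elsewhere. Osmr, a receptor for oncostatin M, measured 12 CPM in electroacupuncture A and 1.38 to 6.46 CPM elsewhere. Serpina3n, which encodes a secreted inhibitor of proteases, was at 0.21 and 0 CPM in models A and B, 0.95 CPM in electroacupuncture A and 4.93 to 12.6 CPM in the other 5 samples.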

How the data were processed

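Poly(A)-selected RNA was sequenced per the labels' protocols. The deposited values are expected counts (estimated read counts, partly fractional) in 18804 rows, not normalized. DESeq2 1.16.1, featureCounts 1.5.0-p3, HISAT2 2.0.5 and StringTie 1.3.3b are named, with no role or order, per the submitters' processing notes. How duplicate reads and reads matching several genes were treated, and the genome build, is information not given in the sources used here. Coordinates printed are those of the RefSeq promoter table.

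Column names gave the group and not the sample, and the 3 sham columns were taken as the control group of 4 labelled samples. Values were rounded, 4 repeated symbols were summed, and column pairs under 2 times the sampling variance (genes with at least 20 counts in a pair) were summed to 1 sample. All 8 samples entered 1 edgeR 4.0.16 fit in R 4.3.3 (quasi-likelihood, two-sided, TMM, default filter, robust dispersion, 5 residual degrees of freedom, biological coefficient of variation 36.8%). limma 3.58.1 (voom), DESeq2 1.42.0, other scalings and filters, separate columns, only the groups compared and each sample left out were alternatives. The script was checked on simulated counts with less spread and larger differences than these data have. That check does not measure the power to detect changes in the astrocyte genes. The planned design had assumed all labelled samples as separate libraries. Log2 CPM used a prior count of 2.

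The members, gene lists and tests were chosen with earlier results of these data known. Named genes are the 10, fixed partner genes (some not reported here), and up to 3 genes a list by smallest unadjusted p. The 8 genes most like the 10 needed a mean of at least 10 CPM.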

Additional observations from a re-analysis of the deposited data

How the results depend on the processing

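None of the 10 genes was called under any alternative run. Of the log2 fold changes of the 10 genes under the alternatives, 31 changed sign and 449 kept it. Without a filter Glul was at 0.005 for electroacupuncture against model, and at 0.011 with the stricter filter (1 CPM). With total counts in place of TMM, Gjb6 was at 0.019 and Aldh1l1 at 0.043 for electroacupuncture against control, but the median of all genes then moved to 0.128 for model against control and 0.092 for electroacupuncture against control. With single samples left out, log2 fold changes in model against control ran from -0.348 to 0.088 for Slc1a2, -0.06 to 0.759 for Aqp4, -0.105 to 0.613 for Gja1, -0.265 to 0.348 for Gjb6, -0.161 to 0.293 for Aldh1l1 and -0.622 to 0.822 for Sox9. In electroacupuncture against model they ran from -0.089 to 0.322 for Slc1a3, -0.512 to 0.307 for Aqp4, -0.155 to 0.15 for Glul, -0.07 to 0.662 for Gja1, -0.432 to 0.215 for Gjb6, -0.337 to 0.122 for Aldh1l1 and -1.029 to 0.415 for Sox9. In electroacupuncture against control they ran from -0.342 to 0.115 for Gjb6 and -0.236 to 0.081 for Aldh1l1.

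The number of the 10 genes with every sample of one group above the other ran, with single samples left out, from 3 to 6 (model above control), 0 to 3 (electroacupuncture above model) and 3 to 5 (electroacupuncture above control). With every sample below, it ran from 0 to 2, 0 to 2 and 0 to 1. With fewer samples, groups overlap less readily, so these counts could hardly fall below those with all samples. No share of all genes is given for these runs, so the higher counts are not a result about the 10 genes. Leaving out samples for these counts was chosen after seeing the data. The median of the 10 log2 fold changes ran from 0.135 to 0.391, -0.057 to 0.229 and 0.184 to 0.428 in the 3 comparisons over all alternatives. Over all genes, edgeR called 356 in model against control without model A, 565 without electroacupuncture A and 294 with only those groups fitted, in place of 1. The cause was not tested. Where 1 model sample was left, it was assumed to vary like the other groups. No paired analysis was possible because the columns carry only the name of a group and a running number that cannot be tied to a labelled sample, and near-identical columns were summed.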

Other observations

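The 8 genes whose log2 CPM followed the mean of the 10 astrocyte genes most closely over the 8 samples, among 10344 other genes averaging 10 CPM or more, were Btbd7 (Pearson r 0.992), Fam184a (0.978), RGD1566085 (0.972), Pld4 (0.972), Hes6 (0.963), Abhd14b (0.961), Bbs2 (0.96) and Acss1 (0.953). These values describe 8 samples that share groups and libraries, and they carry no p-value because the genes were picked as the closest of many. Hes6, a transcription factor related to the Notch targets, measured 19.1 to 19.8 CPM in control samples, 25.9 and 21 CPM in the model and 29.4, 19.3 and 24.7 CPM with electroacupuncture. Acss1, a mitochondrial enzyme that activates acetate, measured 15.6 to 23.3 CPM in control samples, 34.2 and 30.1 CPM in the model and 62.7, 21.2 and 24.8 CPM with electroacupuncture. Pld4, a phospholipase family member found in microglia, reached 101 CPM in electroacupuncture A and 48.5 CPM in model A and was 11 to 28.9 CPM elsewhere. Btbd7 had its highest levels in the same samples, 23.3 CPM in electroacupuncture A and 17.5 CPM in model A, against 11.7 to 16 CPM in the other 6.

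Within the 3 near-identical column pairs that were summed, the level of an astrocyte gene differed by at most 1.18-fold, for Aldh1l1 in model B.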
